A study of Mus musculus with 8 samples.

Results

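The clustered protocadherins made up 59 of the 24346 genes in a table of RNA levels from mouse bone marrow mesenchymal stem cells (MSCs). They were chosen by gene symbol alone, with no measured value: 15 rows of the *Pcdha* series, 22 of the *Pcdhb* series and 22 of the *Pcdhg* series. MSCs are adherent marrow cells that give rise to osteoblasts, adipocytes and chondrocytes. The level of a gene was given as RPKM, a read count divided by transcript length and by the size of the library.

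The libraries fell into 4 groups of 2, at passage 4 and on a C57BL/6 background: undifferentiated wild-type (WT) MSCs, differentiating WT MSCs, undifferentiated *Dnmt3l* KO MSCs and differentiating *Dnmt3l* KO MSCs. The KO cells were homozygous for the *Dnmt3l* tmEnls allele in every cell, and the controls were *Dnmt3l* +/+ littermates; *Dnmt3l* encodes a catalytically inactive partner of the de novo DNA methyltransferases. Differentiating cells had spent 3 days in osteogenic medium with dexamethasone, β-glycerophosphate and ascorbic acid 2-phosphate. Cells of several adult mice were pooled by genotype and depleted of CD11b- and CD45-positive cells, and it was not stated whether replicate libraries stem from separate pools, so the p-values measure only the spread between these libraries, which may be technical.

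Clustered protocadherins are cadherin-like adhesion molecules of the cell surface that bind identical isoforms on a neighbouring cell. Their genes lie in 3 tandem arrays, and each cell switches on its own small set of promoters, a choice that in neurons depends on CTCF, cohesin and DNA methylation and gives each neuron a surface identity. In the alpha and gamma arrays each variable exon carries its own promoter and is spliced to constant exons shared by the whole array, whereas beta genes are separate and have no constant exon. The last genes of the alpha and gamma arrays, the C-type genes, diverge in sequence from the others and tend to be expressed in all cells of a type rather than chosen at random.

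On mouse chromosome 18 (GRCm38, which is mm10; RefSeq positions) the alpha array ran from 36930285 to 37188897, the beta array from 37264998 to 37521419 and the gamma array from 37661775 to 37841873. The remaining row of the alpha series, *Pcdha7-g*, is an annotated fusion of alpha and gamma exons and was listed at 0 in all 8 libraries. Transcript models were at hand for 57 of the 59 members. In the alpha array a median of 60.0% of 50-base windows of a transcript also occurred in another member, with a run of 2860 bases common to all its transcripts. In the gamma array the median was 44.8%, with a common run of 2116 bases. Among beta genes the median was only 4.26%, and the highest value was 12.0%. The alpha and gamma values therefore rest on how Cuffdiff divided reads of the constant exons among isoforms, and in total RNA unspliced transcripts from one promoter run through the variable exons downstream of it. Transcription from a gene's own promoter and reads passed to it from its neighbours cannot be told apart here.

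In the WT libraries *Dnmt3l* was at 1.56 and 1.09 RPKM in undifferentiated and 0.845 and 0.830 RPKM in differentiating MSCs, and it was listed at 0 in all 4 KO libraries. A listed 0 can be a failed estimate, since *Actb* was also at 0 in the 2 undifferentiated KO libraries and *Eef1a1* in 6 libraries. For *Dnmt3l* the paper reported no expression in KO MSCs. In WT MSCs the paper found reads only over the later exons of *Dnmt3l* and could not detect the canonical protein. All 11 MSC markers passed the minimum level in these libraries. Of the 10 macrophage and leukocyte markers *Cd3e* was at 0 in all libraries. The summed level of the list ran from 18.0 to 19.2 RPKM in undifferentiated WT, 31.2 to 35.8 in differentiating WT, 8.74 to 9.66 in undifferentiated KO and 13.8 to 14.9 in differentiating KO MSCs. *Lyz2* alone averaged 13.1, 24.7, 3.31 and 7.24 RPKM in these groups. Before induction 2 of the 8 markers tested passed the test described below as higher in KO and 3 as lower, against 32.2% of all genes. After induction 1 was higher and 6 were lower, against 40.7%. The part of these markers in the protocadherin results was not tested. Estimated depth ranged from 48.0 to 67.1 M scaled reads, so that 3 reads on a transcript of 3000 effective bases were worth 0.0149 to 0.0208 RPKM. Fewer cells of a type and less RNA per cell cannot be told apart in bulk samples.

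Gamma genes, and above all *Pcdhgc3*, made up most of the clustered protocadherin RNA of these MSCs, beta genes 19.6% to 30.6% by group, and alpha genes 0.774% to 1.84%. The mean over the 8 libraries was 17.2 RPKM for *Pcdhgc3*, a C-type gene, against 4.25 RPKM for the next, *Pcdhb22*, and 4.23 RPKM for *Pcdhb17*. In all, 21 members averaged 1 RPKM or more. Gamma means ran from 0.314 to 17.2 RPKM, beta means from 0.00112 to 4.25 RPKM and alpha means from 0 to 0.229 RPKM. A mean of at least 0.1 RPKM, needed for the test, was reached by all 22 gamma genes, 18 beta genes and 3 alpha genes, 43 members in total; the 16 others had means of 0 to 0.0827 RPKM. The plot of levels by library shows the steep rise at *Pcdhgc3*.

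**Figure D1:**
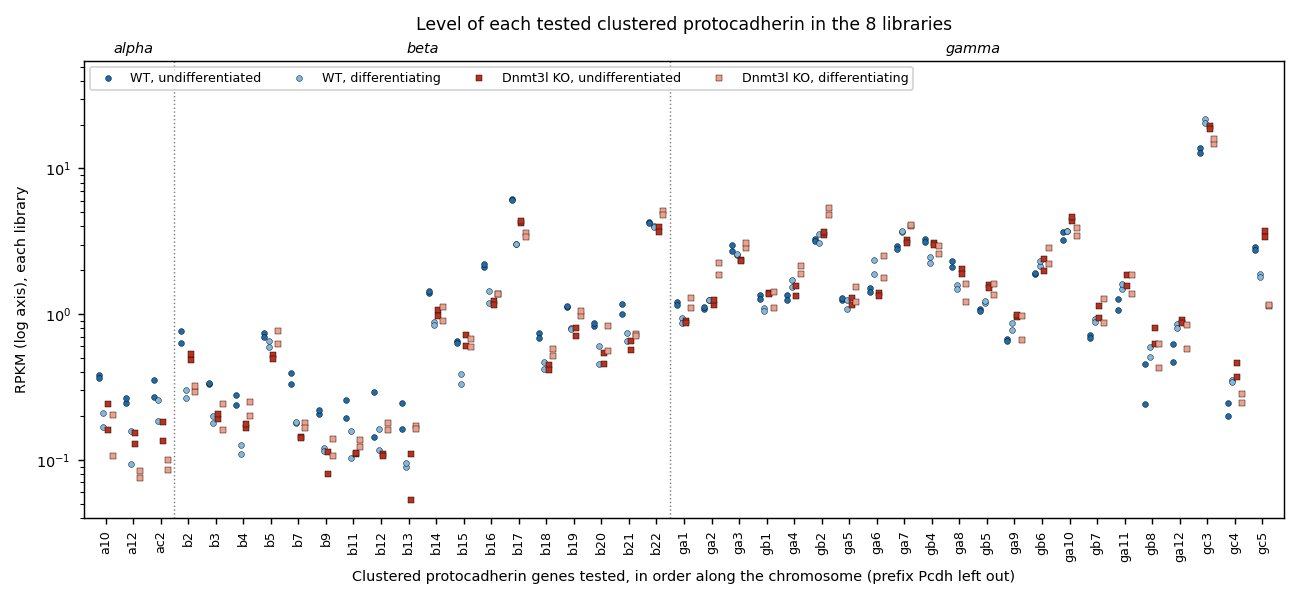
RPKM (log axis) of the 43 clustered protocadherins tested, in chromosomal order, with 1 point for each of the 8 libraries, coloured by group. *Pcdhgc3* lies above 12 RPKM in every library, beta genes other than *Pcdhb17* and *Pcdhb22* lie below 2.5 RPKM, and the alpha genes lie below 0.4 RPKM.

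Summed over the whole family, RNA was nearly level across the groups while its division among the arrays was not. The family sum was 73.0 and 69.5 RPKM in undifferentiated WT, 73.0 and 70.1 in differentiating WT, 75.6 and 72.8 in undifferentiated KO and 68.6 and 77.0 in differentiating KO MSCs, so that all 4 groups overlapped in range with at least 1 other. The beta sum was 21.8 ± 0.429 RPKM (SD, n = 2) in undifferentiated WT MSCs, 14.0 ± 0.550 in differentiating WT, 15.3 ± 0.442 in undifferentiated KO and 16.7 ± 0.213 in differentiating KO MSCs. The undifferentiated WT libraries stood highest and overlapped no other group. The beta share of the family sum was 30.6% in undifferentiated WT MSCs and 19.6% to 23.1% in the other groups. The gamma C-type sum was 16.3 ± 0.925 RPKM in undifferentiated WT, 23.3 ± 0.949 in differentiating WT, 23.0 ± 1.08 in undifferentiated KO and 16.7 ± 0.782 in differentiating KO MSCs. In the C-type sum undifferentiated KO MSCs overlapped differentiating WT MSCs. In the beta sum they lay between differentiating WT and differentiating KO MSCs and overlapped neither. The remaining 19 gamma genes summed to 31.9 ± 1.18, 33.4 ± 0.541, 35.1 ± 0.374 and 38.7 ± 4.89 RPKM in the same order of groups. The C-type genes and the other 19 gamma genes are parts of the same array and share its constant exons. How constant-exon reads were divided between these parts therefore enters both sums. A sum over the whole gamma array is less exposed to that division than either part or a single isoform is. It averaged 48.1, 56.8, 58.2 and 55.5 RPKM in the same order of groups.

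**Figure D2:**
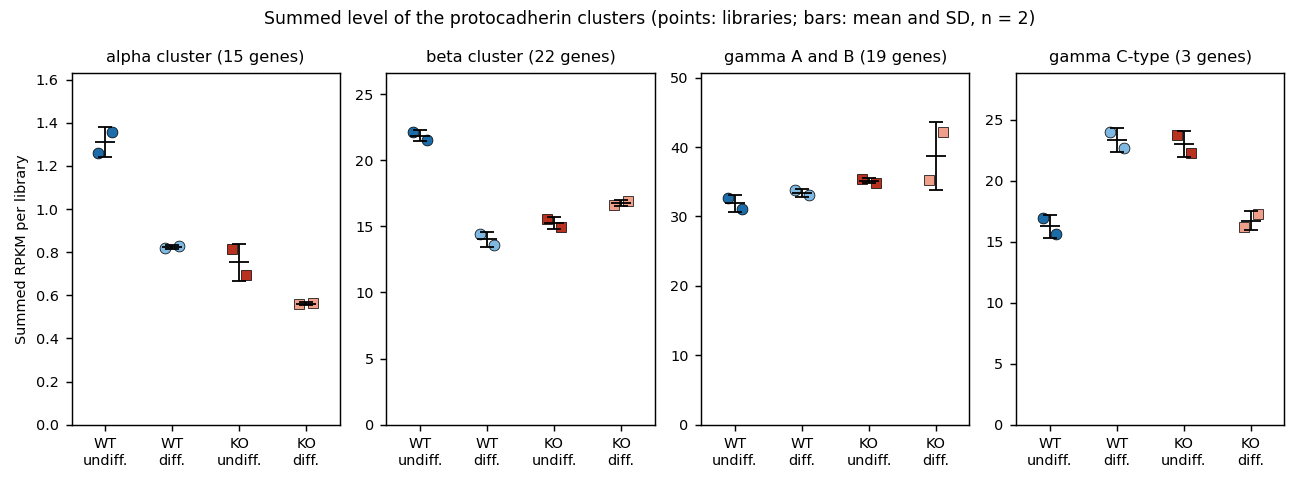
Summed RPKM of the alpha, beta, gamma A and B and gamma C-type genes in each library (points), with the mean and SD of each group of 2 (bars); axes start at 0. Beta sums are highest in undifferentiated WT MSCs, and C-type sums are high in differentiating WT and undifferentiated KO MSCs and low in the other groups.

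The libraries of differentiating KO MSCs stood apart from each other in the gamma array. All 22 gamma genes were higher in replicate 2 than in replicate 1, by a median of 0.25 on the log2 scale, while in the other groups 4 to 9 of 22 were higher in replicate 2. Of the 18 beta genes tested 11 were higher in replicate 2 in this group, by a median of 0.09, against 4 to 7 in the other groups. The share of all genes higher in replicate 2 was not counted. A shift of the whole library therefore cannot be told apart from one of the gamma array. The gamma sums of the differentiating KO libraries were 51.5 and 59.5 RPKM. The gamma counts that involve this group are given below with and without each of them.

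Levels were compared with limma on log2(RPKM + 0.1), so that fold changes of low genes are understated, with p-values adjusted over all 15342 genes tested by the Benjamini-Hochberg method. Passing the test means an adjusted p under 0.05, and a DEG also has an absolute log2 fold change above 1. The first comparison asked whether loss of *Dnmt3l* went with other RNA levels before induction. In undifferentiated MSCs 17 of the 43 members passed, 6 of them higher and 11 lower in KO; over all genes tested 32.2% passed, 14.7% higher and 17.5% lower. None was a DEG, against 1.70% of all genes. The unadjusted p was under 0.05 for 32 members, but the share of all genes under that limit was not counted. With quantile normalization 5 were higher and 16 lower, and with median centring 5 and 15.

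Beta genes gave 9 of these 11 lower calls and no higher call. Of the 18 beta genes tested, 17 had both KO libraries below both WT libraries, against 36.9% of all genes, and the median log2 fold change was -0.55 against -0.00 over all genes. The number of lower calls was 13 with quantile normalization and 11 of 22 with no minimum level. It was 5 without WT replicate 1 and 6 without WT replicate 2 or without either KO replicate, with no higher call in any of these fits.

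*Pcdhb17*, an abundant beta gene (chromosome 18, 37485021 to 37488290), was at 6.20 and 6.10 RPKM in undifferentiated WT and 4.20 and 4.33 RPKM in undifferentiated KO MSCs. It fell in KO with a log2 fold change of -0.52 (SE 0.05, adjusted p = 0.00121, limma). *Pcdhb16* was at 2.11 and 2.2 RPKM in WT and 1.23 and 1.16 RPKM in KO MSCs, a log2 fold change of -0.81 (SE 0.09, adjusted p = 0.00270). *Pcdhb7*, a scarcer beta gene, showed the largest fall of the family in this state, from 0.394 and 0.330 RPKM to 0.144 and 0.140 RPKM (log2 fold change -0.93, SE 0.14, adjusted p = 0.00637). WT and KO libraries of these 3 genes did not overlap, and all 3 passed under every alternative run. *Pcdhb22*, the most abundant beta gene, differed little, with 4.32 and 4.20 RPKM in WT and 3.94 and 3.64 RPKM in KO (log2 fold change -0.17, SE 0.06, adjusted p = 0.0775). *Pcdhb15* was the only tested beta gene whose groups overlapped here, with 0.651 and 0.631 RPKM in WT and 0.720 and 0.606 RPKM in KO.

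All 3 gamma C-type genes rose in undifferentiated KO MSCs. *Pcdhgc3* (37806410 to 37841873) was at 13.8 and 12.7 RPKM in WT and 19.6 and 18.5 RPKM in KO (log2 fold change 0.53, SE 0.06, adjusted p = 0.00260). *Pcdhgc4*, whose product in the mouse is needed for the survival of interneurons, was at 0.247 and 0.200 RPKM in WT and 0.462 and 0.373 RPKM in KO (log2 fold change 0.68, SE 0.15, adjusted p = 0.0206). *Pcdhgc5* was at 2.91 and 2.74 RPKM in WT and 3.73 and 3.36 RPKM in KO (log2 fold change 0.32, SE 0.07, adjusted p = 0.0222). The *Pcdhgc3* call held in every alternative, while *Pcdhgc4* and *Pcdhgc5* lost theirs without WT replicate 2 (adjusted p = 0.0884 and 0.115) or without KO replicate 1 (0.0863 and 0.111), and *Pcdhgc5* also without WT replicate 1 (0.0589) and with only the 4 libraries compared (0.0613). In the alpha array *Pcdhac2*, the last C-type gene, lay the other way, at 0.269 and 0.352 RPKM in WT and 0.181 and 0.135 RPKM in KO, without passing (log2 fold change -0.67, SE 0.20, adjusted p = 0.0504). *Pcdhac1* was at 0.00741 to 0.0315 RPKM over the 8 libraries, in the range of a few reads, and was not tested.

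Of the other 19 gamma genes 3 rose and 2 fell, against 14.7% and 17.5% of all genes. Both falls were lost without WT replicate 2 or without either KO replicate, and over all 22 gamma genes 1 rise was left without WT replicate 2 or KO replicate 1, and 3 without KO replicate 2. *Pcdhga10*, the most abundant of them, was at 3.65 and 3.21 RPKM in WT and 4.38 and 4.67 RPKM in KO (log2 fold change 0.39, SE 0.09, adjusted p = 0.0205), a call lost without WT replicate 2 (adjusted p = 0.103), KO replicate 1 (0.0705) or KO replicate 2 (0.113). *Pcdhga12*, the last gamma A gene, had 0.622 and 0.471 RPKM in WT and 0.915 and 0.869 RPKM in KO and an adjusted p of 0.04999, and missed the threshold in 13 of 18 alternatives, among them those without any 1 of the 4 libraries compared (adjusted p = 0.0665 to 0.211). *Pcdhgb2*, the most abundant gamma B gene, was at 3.29 and 3.19 RPKM in WT and 3.52 and 3.66 RPKM in KO (adjusted p = 0.252). Of the 3 alpha genes tested all had both KO libraries below both WT libraries, against 36.9% of all genes. Their log2 fold changes were -0.67 to -0.57, but none passed. The unadjusted p (limma) was under 0.05 in all 3, without a share of all genes to set it against. *Pcdha10*, the most abundant alpha gene, was at 0.382 and 0.362 RPKM in WT and 0.242 and 0.161 RPKM in KO (adjusted p = 0.0866).

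**Figure D3:**
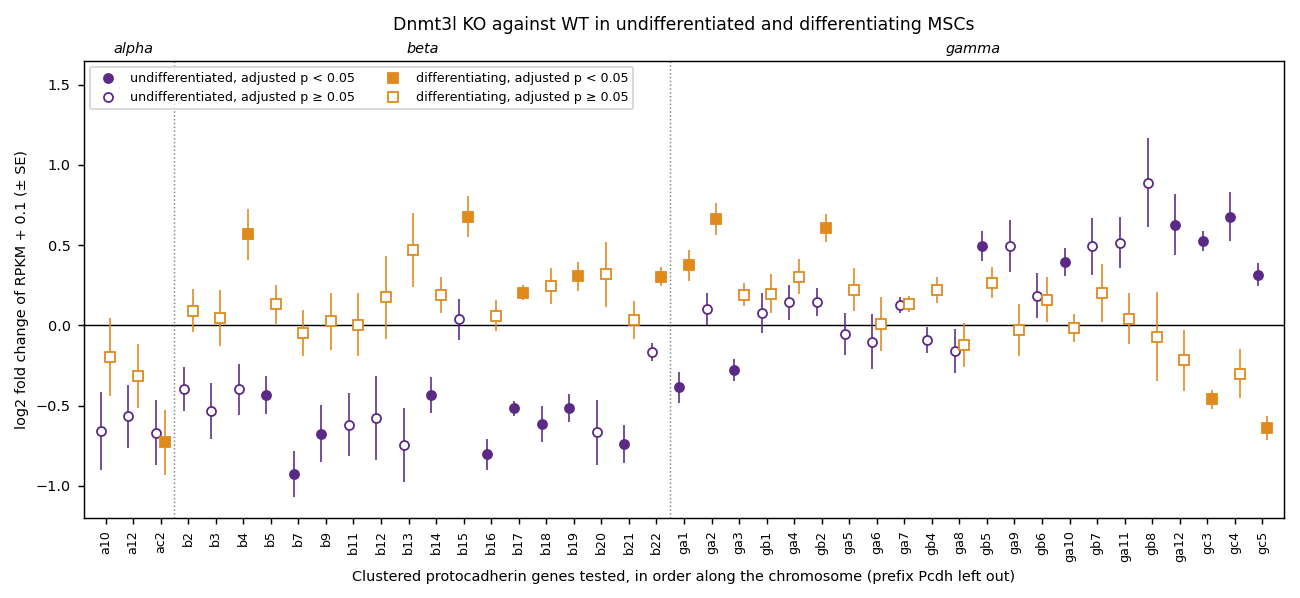
Log2 fold change (± SE, limma) of *Dnmt3l* KO against WT for the 43 members tested, in chromosomal order, in undifferentiated (circles) and differentiating (squares) MSCs; filled symbols have an adjusted p under 0.05. Before induction beta genes lie below 0 except *Pcdhb15* and the end of the gamma array lies above 0; after induction 17 of 18 beta genes lie above 0 and the gamma C-type genes below it.

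The second comparison asked the same of differentiating MSCs, with 4 other libraries. There 11 members passed, 8 higher and 3 lower in KO, against 40.7% of all genes (17.8% higher, 22.9% lower). None was a DEG, against 3.30% of all genes. The unadjusted p was under 0.05 for 16 members, again without a share of all genes to set it against. Of 18 beta genes 5 rose and none fell, with a median log2 fold change of 0.18. The number of rises was 2 without WT replicate 1, 1 without WT replicate 2 and 2 with only these libraries, with medians of 0.21, 0.12 and 0.18. *Pcdhb15* was at 0.333 and 0.390 RPKM in WT and 0.597 and 0.677 RPKM in KO (log2 fold change 0.68, SE 0.13, adjusted p = 0.00914), the largest rise among beta genes. *Pcdhb17* was at 3.02 and 3.02 RPKM in WT and 3.60 and 3.39 RPKM in KO (log2 fold change 0.20, SE 0.05, adjusted p = 0.0174). *Pcdhb22* was at 4.01 and 3.98 RPKM in WT and 5.13 and 4.78 RPKM in KO (log2 fold change 0.30, SE 0.06, adjusted p = 0.00996). The *Pcdhb17* call was lost without WT replicate 1 (adjusted p = 0.0685), without WT replicate 2 (0.0804) and with only these libraries (0.0970), and the *Pcdhb22* call without WT replicate 2 (0.0602) and with only these libraries (0.0518). For these genes the KO libraries were above both WT libraries, the opposite order from *Pcdhb17* before induction.

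C-type genes were lower in KO after induction. *Pcdhgc3* was at 21.8 and 20.5 RPKM in WT and 14.8 and 15.8 RPKM in KO, and fell with a log2 fold change of -0.46 (SE 0.06, adjusted p = 0.00303). *Pcdhgc5* was at 1.89 and 1.79 RPKM in WT and 1.13 and 1.16 RPKM in KO (log2 fold change -0.64, SE 0.07, adjusted p = 0.00205). *Pcdhac2* fell too, from 0.257 and 0.185 RPKM to 0.0849 and 0.0998 RPKM (log2 fold change -0.73, SE 0.20, adjusted p = 0.0319), but lost the call in 6 of 17 alternatives, among them those without any 1 of these 4 libraries (adjusted p = 0.0505 to 0.115). *Pcdhgc4* lay between 0.345 and 0.354 RPKM in WT and between 0.245 and 0.284 RPKM in KO without passing (adjusted p = 0.165).

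At the other end of the gamma array *Pcdhga2* and *Pcdhgb2* rose in KO. *Pcdhga2* was at 1.25 and 1.25 RPKM in WT and 1.86 and 2.23 RPKM in KO (log2 fold change 0.66, SE 0.10, adjusted p = 0.00439). *Pcdhgb2* was at 3.54 and 3.06 RPKM in WT and 4.78 and 5.35 RPKM in KO (log2 fold change 0.61, SE 0.09, adjusted p = 0.00381). Both passed in every alternative, as did *Pcdhgc3*, *Pcdhgc5* and *Pcdhb15*. Over the gamma array 3 genes rose and 2 fell; without KO replicate 1 this became 6 and 2 with 19 of 22 fold changes above 0, and without KO replicate 2 it became 2 and 2 with 10 of 22 above 0.

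Induction was compared in each genotype; these comparisons share libraries with those of genotype, so that neither set is independent of the other. In WT MSCs 25 members passed, 5 higher and 20 lower after induction, against 64.4% of all genes (31.6% higher, 32.8% lower). With quantile normalization 2 were higher and 28 lower, and with median centring, which moved the median gene by -0.10 on the log2 scale, 2 and 24. Beta genes supplied 14 of the 20 falls and no rise, with a median log2 fold change of -0.59 and with 17 of 18 genes lower without overlap, against 41.9% of all genes. *Pcdhb17* fell from 6.20 and 6.10 RPKM to 3.02 and 3.02 RPKM (log2 fold change -1.0, SE 0.05, adjusted p = 1.24e-05, at the DEG limit). *Pcdhb2*, near the start of the beta array, went from 0.633 and 0.772 RPKM to 0.301 and 0.264 RPKM (log2 fold change -1.06, SE 0.14, adjusted p = 0.000787). These were the 2 DEGs of the family here, against 14.3% of all genes. *Pcdhb22* stayed between 3.98 and 4.32 RPKM in all 4 WT libraries (log2 fold change -0.09, SE 0.06, adjusted p = 0.228).

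The alpha genes *Pcdha10* and *Pcdha12* fell in WT MSCs. *Pcdha10* went from 0.382 and 0.362 RPKM to 0.210 and 0.167 RPKM (log2 fold change -0.71, SE 0.24, adjusted p = 0.0417), and *Pcdha12* from 0.245 and 0.266 RPKM to 0.0931 and 0.158 RPKM (log2 fold change -0.67, SE 0.20, adjusted p = 0.0247). Among C-type genes *Pcdhgc3* rose from 13.8 and 12.7 RPKM to 21.8 and 20.5 RPKM (log2 fold change 0.67, SE 0.06, adjusted p = 0.000184), and *Pcdhgc4* rose from 0.247 and 0.200 RPKM to 0.354 and 0.345 RPKM (log2 fold change 0.48, SE 0.15, adjusted p = 0.0331). *Pcdhgc5*, the neighbour of *Pcdhgc4* and last gene of the array, fell from 2.91 and 2.74 RPKM to 1.89 and 1.79 RPKM (log2 fold change -0.59, SE 0.07, adjusted p = 0.000700). Of these calls, those of *Pcdhgc3* and *Pcdhgc5* held in every alternative. *Pcdha10* lost its call without any 1 of the 4 WT libraries (adjusted p = 0.0767 to 0.154), *Pcdha12* without any of them but differentiating replicate 2 (0.0548 to 0.0827), and *Pcdhgc4* without any of them but undifferentiated replicate 1 (0.0827 to 0.125) and with quantile normalization (0.410). The 3 C-type genes, which share their constant exons, thus did not all move the same way in WT MSCs.

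In *Dnmt3l* KO MSCs 17 members passed after induction, 10 higher and 7 lower, against 72.9% of all genes (36.4% higher, 36.6% lower). With quantile normalization 4 were higher and 16 lower. The balance turned on the differentiating libraries, with 12 higher and 4 lower without replicate 1 and 7 higher and 10 lower without replicate 2. The gamma array gave 7 rises and 5 falls with a median log2 fold change of -0.07, against 8 and 2 with a median of 0.09 without replicate 1, and 5 and 8 with a median of -0.21 without replicate 2. Beta genes gave 3 rises and 2 falls, with a median log2 fold change of 0.20 that was -0.10 with quantile normalization. *Pcdhb17* fell from 4.20 and 4.33 RPKM to 3.60 and 3.39 RPKM (log2 fold change -0.28, SE 0.05, adjusted p = 0.00185) and *Pcdhb2* from 0.484 and 0.533 RPKM to 0.293 and 0.322 RPKM (log2 fold change -0.58, SE 0.14, adjusted p = 0.00864). *Pcdhb22* rose from 3.94 and 3.64 RPKM to 5.13 and 4.78 RPKM (log2 fold change 0.38, SE 0.06, adjusted p = 0.00130). All 3 gamma C-type genes fell in KO MSCs. *Pcdhgc5* went from 3.73 and 3.36 RPKM to 1.13 and 1.16 RPKM (log2 fold change -1.55, SE 0.07, adjusted p = 7.28e-06), the largest change of the family in any comparison and its DEG here, against 22.9% of all genes. *Pcdhgc3* went from 19.6 and 18.5 RPKM to 14.8 and 15.8 RPKM (log2 fold change -0.31, SE 0.06, adjusted p = 0.00391), where in WT MSCs it had risen. *Pcdhgc4* went from 0.462 and 0.373 RPKM to 0.245 and 0.284 RPKM (log2 fold change -0.50, SE 0.15, adjusted p = 0.0244), a call lost without undifferentiated replicate 1 (0.0976) or differentiating replicate 1 (0.0739). *Pcdhga6*, in the middle of the array, rose in both genotypes, from 1.52 and 1.43 RPKM to 2.34 and 1.88 RPKM in WT (adjusted p = 0.0460) and from 1.39 and 1.34 RPKM to 1.78 and 2.50 RPKM in KO (adjusted p = 0.0195); the WT call was lost in 11 of 18 alternatives, with an adjusted p of 0.220 without differentiating replicate 1, and the KO call in 5 of 18, with 0.0768 without differentiating replicate 2.

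**Figure D4:**
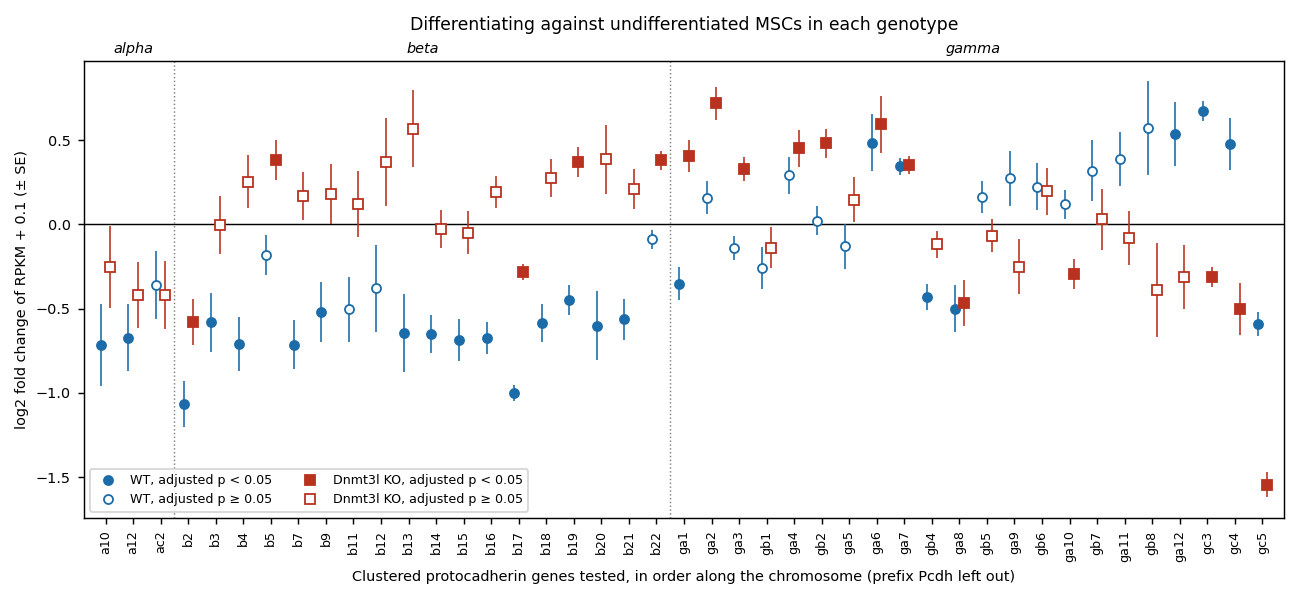
Log2 fold change (± SE, limma) of differentiating against undifferentiated MSCs for the 43 members tested, in chromosomal order, in WT (circles) and *Dnmt3l* KO (squares) MSCs; filled symbols have an adjusted p under 0.05. All 18 beta genes lie below 0 in WT, 13 of them lie above 0 in KO, and *Pcdhgc5* in KO is the lowest point at -1.55.

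The difference between the genotype effects after and before induction was tested as an interaction, and 22 members passed, 17 higher and 5 lower, against 39.4% of all genes (19.4% higher, 20.0% lower). A positive value means that KO against WT was higher after induction than before it. All 18 beta genes were positive, from 0.47 to 1.21, and 13 passed, with a median of 0.74 against -0.01 over all genes. The number that passed was 7 without differentiating WT replicate 2, 8 without undifferentiated WT replicate 1, and 9 without differentiating WT replicate 1 or either undifferentiated KO replicate, while all 18 stayed positive in each of these fits. *Pcdhb13*, a beta gene at 0.0534 to 0.245 RPKM, had the largest value, 1.21 (SE 0.33, adjusted p = 0.0301), and was the only DEG, against 6.17% of all genes; its call was lost in 7 of 16 alternatives, 6 of them without 1 library (adjusted p = 0.0508 to 0.0704). *Pcdhb17* had 0.72 (SE 0.07, adjusted p = 0.00114), *Pcdhb16* 0.87 (SE 0.13, adjusted p = 0.00484) and *Pcdhb22* 0.47 (SE 0.08, adjusted p = 0.00734), and these 3 passed in every alternative. The 3 gamma C-type genes passed, *Pcdhgc3* at -0.99 (SE 0.09, adjusted p = 0.00104), *Pcdhgc4* at -0.98 (SE 0.22, adjusted p = 0.0155) and *Pcdhgc5* at -0.96 (SE 0.10, adjusted p = 0.00171). They passed in every alternative, but the closeness of their values depended on the settings. Over the alternatives *Pcdhgc3* ran from -1.05 to -0.93, *Pcdhgc4* from -1.26 to -0.31 and *Pcdhgc5* from -1.03 to -0.65. In the gamma array as a whole 4 genes passed higher and 5 lower; the counts were 5 and 3 without differentiating KO replicate 1 and 3 and 6 without replicate 2. All 3 C-type values were negative although induction alone moved *Pcdhgc3* and *Pcdhgc5* in opposite directions in WT MSCs.

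Within the gamma array the genotype difference followed the order of the genes. Across the 22 gamma genes Spearman's rho between order and log2 fold change was 0.81 in undifferentiated MSCs and -0.80 in differentiating MSCs, which share no libraries, and -0.94 for the interaction. These values describe genes that share constant exons, libraries and overlapping transcripts, and are not tests. They lay between 0.74 and 0.84, -0.84 and -0.74, and -0.95 and -0.92 over the alternatives, including those without either library of differentiating KO MSCs. Without the C-type genes rho was 0.79, -0.69 and -0.93 over 19 genes; it was 0.78, -0.86 and -0.97 over the 12 gamma A genes and 0.79, -0.54 and -0.86 over the 7 gamma B genes. Both families, which alternate along the array, thus ran the same way in the main fit. After induction the gamma B value ran from -0.75 to -0.36 over the alternatives, and that of the 19 genes from -0.76 to -0.59. The response to induction followed the order too. Over the 22 genes its rho was -0.78 in KO and 0.45 in WT MSCs, and over the 19 genes -0.67 and 0.58. These values are likewise not tests.

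The ends of the array show the size of the gradient. The first 7 genes, *Pcdhga1* to *Pcdhga5*, had a median genotype log2 fold change of 0.08 before and 0.30 after induction; 2 of them fell and none rose in KO before it, and 3 rose and none fell after it. The last 7, *Pcdhgb7* to *Pcdhgc5*, had a median of 0.53 before and -0.22 after it, with 4 rises before and 2 falls after. Of all genes tested 32.2% passed before induction (14.7% higher, 17.5% lower) and 40.7% after it (17.8% higher, 22.9% lower). Without differentiating KO replicate 1 the medians after induction were 0.39 at the start and 0.02 at the end, and without replicate 2 they were 0.22 and -0.38, so that the sign at the end turned with 1 library while its 2 falls were counted in both fits. The 2 falls at the start were lost without undifferentiated WT replicate 2 or either undifferentiated KO replicate. *Pcdhga1*, at the start, was chosen here after its values were seen. It went from 1.21 and 1.15 RPKM in WT to 0.892 and 0.865 RPKM in KO before induction and from 0.935 and 0.870 RPKM to 1.11 and 1.30 RPKM after it (interaction 0.76, SE 0.14, adjusted p = 0.00780). It fell in KO before induction (adjusted p = 0.0284) and rose after it (adjusted p = 0.0253). The fall was lost in 5 of 18 alternatives, among them those without any 1 of the 4 libraries compared (adjusted p = 0.0879 to 0.118). The rise was lost in 5 of 18 too, among them those without either WT replicate (0.0611 and 0.120) or KO replicate 2 (0.0832), while the interaction passed in all 17. The beta array showed no such order, with rho of -0.09, 0.33 and 0.22 over 18 genes.

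**Figure D5:**
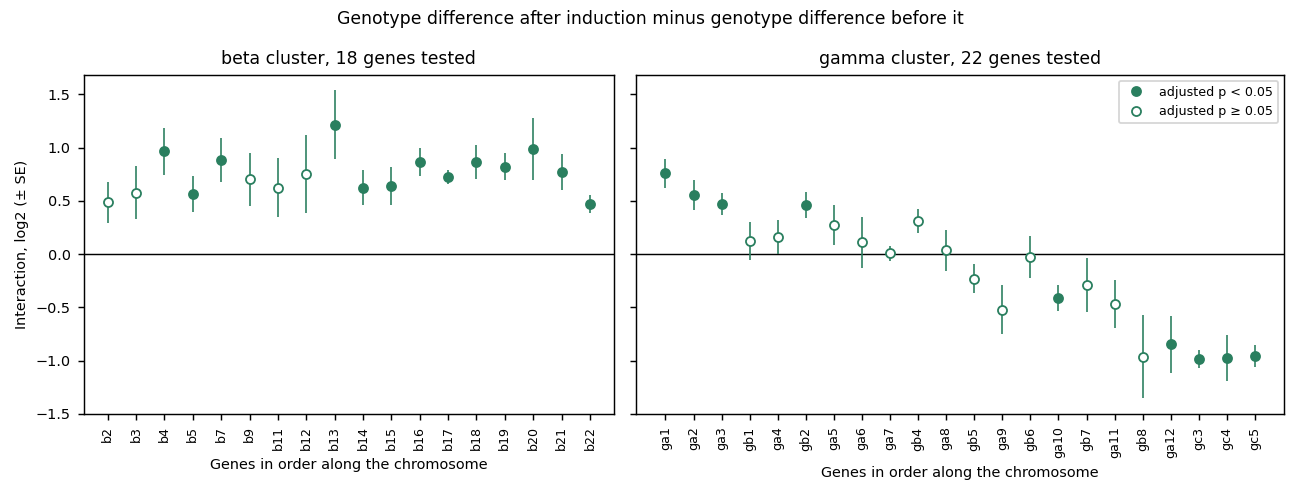
Interaction of genotype and induction (log2, ± SE, limma) for 18 beta genes and 22 gamma genes in chromosomal order; filled symbols have an adjusted p under 0.05. Beta genes lie between 0.47 and 1.21 throughout, while gamma genes descend from 0.76 at *Pcdhga1* to values near -0.96 to -0.99 at the C-type genes.

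Genes known to act on protocadherin promoter choice were given by a list. Of 10 CTCF and cohesin genes tested, 1 rose and 2 fell in KO before induction and 4 rose and 1 fell after it, against 32.2% and 40.7% of all genes that passed in these comparisons; their summed level stayed between 183 and 190 RPKM in all libraries. *Ctcf*, whose product binds protocadherin promoters and enhancers, was at 14.3 and 14.3 RPKM in WT and 14.7 and 14.5 RPKM in KO before induction, and at 13.0 and 13.4 RPKM in both genotypes after it. *Rad21*, a cohesin subunit, went from 16.3 and 16.3 RPKM to 21.2 and 20.0 RPKM in KO before induction and from 20.5 and 19.7 RPKM to 16.6 and 18.3 RPKM after it (interaction -0.54, SE 0.08, adjusted p = 0.00409). *Stag2* (interaction 0.38, SE 0.05, adjusted p = 0.00330) and *Mau2* (0.34, SE 0.04, adjusted p = 0.00296) of the same list lay the other way. In this list 2 interactions passed higher and 1 lower, against 39.4% of all genes. Of 9 DNA methylation genes 2 rose and 2 fell before induction and 3 fell after it, *Dnmt3l* among the falls in both, against the same shares of all genes. *Dnmt1*, the maintenance methyltransferase, was at 15.3 and 14.7 RPKM in WT and 21.4 and 21.3 RPKM in KO before induction and at 12.3 and 12.8 against 9.28 and 8.60 RPKM after it (interaction -1.0, SE 0.07, adjusted p = 0.000591). Of 9 silencing factors 1 rose and 2 fell before induction, near the 32.2% of all genes, and none passed after it (limma; 2 had an unadjusted p under 0.05), against 40.7%. *Smchd1*, a repressor of clustered protocadherins, was at 18.3 and 18.1 RPKM in WT and 19.3 and 18.5 RPKM in KO before induction (adjusted p = 0.348). The part of these genes in the protocadherin results was not tested.

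Of 12 protocadherin genes outside the clusters, 7 were tested; 3 rose and 2 fell in KO in undifferentiated MSCs, against 32.2% of all genes, and 2 rose and 4 fell in differentiating MSCs, against 40.7%. *Pcdh7*, the most abundant before induction, was at 13.3 and 12.7 RPKM in WT and 17.7 and 17.3 RPKM in KO before it, and at 9.79 and 9.65 RPKM in WT and 8.01 and 7.73 RPKM in KO after it (interaction -0.72, SE 0.05, adjusted p = 0.000754). *Pcdh18* lay the other way (interaction 0.43, SE 0.07, adjusted p = 0.00685). Of 15 known partners and downstream genes of clustered protocadherins 2 rose and 3 fell in KO before induction and 5 fell after it, against the same shares of all genes. *Ptk2*, which encodes focal adhesion kinase and is inhibited by alpha and gamma protocadherins, was at 22.9 and 22.9 RPKM in WT and 22.8 and 23.6 RPKM in KO before induction and at 18.6 and 18.3 against 16.1 and 15.3 RPKM after it (adjusted p = 0.00479).

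Neighbours within 250 kb of the arrays or between them numbered 25, of which 19 were tested; 5 rose and 2 fell in KO before induction, against 14.7% and 17.5% of all genes, and 2 rose and 2 fell after it, against 17.8% and 22.9%. *Taf7*, a general transcription factor gene between the beta and gamma arrays, fell from 2.65 and 2.45 RPKM to 1.56 and 1.60 RPKM before induction (log2 fold change -0.66, SE 0.06, adjusted p = 0.00141) and was at 2.30 and 2.33 against 2.34 and 2.22 RPKM after it. *Diap1* (*Diaph1*), just beyond *Pcdhgc5*, which encodes an actin-nucleating formin, rose from 4.78 and 4.43 RPKM to 6.70 and 6.69 RPKM in KO before induction and fell from 8.93 and 8.15 RPKM to 6.55 and 7.29 RPKM after it (interaction -0.83, SE 0.10, adjusted p = 0.00247).

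Neurons express clustered protocadherins most, and neuron markers were checked in these cultures. Of 9 such genes 5 were below the minimum level, *Rbfox3*, *Snap25*, *Syt1*, *Gad1* and *Slc17a7*. The summed level of the list was 53.5 to 55.5 RPKM in undifferentiated WT, 13.9 to 16.0 in differentiating WT, 45.5 to 45.7 in undifferentiated KO and 6.77 to 8.96 in differentiating KO MSCs, most of it *Tubb3* before induction, which cultured MSCs also express. Of 6 glia and Schwann cell markers 3 were tested, with a sum of 3.59 to 10.8 RPKM, and of 6 endothelial markers 2 were tested, with a sum of 0.542 to 4.67 RPKM. Their part in the protocadherin results was not tested.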

How the data were processed

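RNA levels came from 8 libraries, and the labels and matching column names gave each library its group, with 0 columns of per-sample values left over. The authors removed ribosomal RNA, sequenced stranded single-end libraries, aligned the reads to mm10 with TopHat2 (2.1.0) and the iGenomes annotation, and deposited RPKM per gene and library from Cuffdiff (Cufflinks 2.2.1), with replicates kept apart. How libraries were normalized and how reads matching several places were treated was not given in the sources used here. Versions are those of the submitters' processing notes.

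Values were taken as log2(RPKM + 0.1) for 15342 genes whose mean was 0.1 RPKM or higher; 4324 genes were at 0 throughout. One linear model with the 4 groups was fitted in limma (3.58.1, under R 4.3.3), letting the variance follow expression (4 residual and 1.98 prior degrees of freedom), with Benjamini-Hochberg adjustment. The procedure was tested on simulated data. RPKM gives no depth directly, so depth was estimated from the steps between low values in 2394 genes with 1 transcript, after taking 200 bases off the length; 79.9% of 4291 low values were then whole within 0.1 read, against 20% by chance, too few for a count test. The floor of 3 reads covers counting error only. Positions are from RefSeq, and the windows shared between members from GENCODE transcripts. Sums were made with pandas (2.3.3), numpy (2.4.6) and scipy (1.17.1) under Python 3.11.15, and plots with matplotlib (3.10.9).

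Members were all genes whose symbol joins Pcdha, Pcdhb or Pcdhg to an isoform name. Those described with values were the 5 C-type genes, the 3 with the highest mean in each array, every DEG, and in each comparison the 2 in each direction with the largest log2 fold change among those that passed; *Pcdhga1* was added. Members and lists were chosen with earlier results of these data known. Alternatives changed the pseudocount (0.01 or 1), the minimum level (none or 0.5 RPKM), the scaling (quantiles or medians), the variance trend, the fold limit and the set of genes (without those listed at 0 in a group), added a block for the replicate number, used the compared libraries alone, or left out 1 library. Sequences of members are not reported here.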

Additional observations from a re-analysis of the deposited data

Results flagged for a closer look

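The genotype difference itself changed with induction for 22 of the 43 clustered protocadherins tested (interaction in limma, adjusted p under 0.05), against 39.4% of all genes. Members named by the rule are given here with the log2 interaction value, which is positive where KO against WT was higher after induction.

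Among beta genes the values were 0.88 for *Pcdhb7*, 1.21 for *Pcdhb13*, 0.64 for *Pcdhb15*, 0.87 for *Pcdhb16*, 0.72 for *Pcdhb17*, 0.99 for *Pcdhb20* and 0.47 for *Pcdhb22*. *Pcdhb7*, *Pcdhb16*, *Pcdhb17* and *Pcdhb22* passed in every alternative. *Pcdhb15* and *Pcdhb20* each lost the call in 8 of 17, with the highest adjusted p at 0.0890 and 0.116, both without undifferentiated KO replicate 2. *Pcdhb13* lost it in 7 of 16, with the highest at 0.0704 without undifferentiated WT replicate 1. *Pcdhb17* passed in both states, lower in KO before induction and higher after it.

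Among gamma genes the values were 0.56 for *Pcdhga2*, 0.46 for *Pcdhgb2*, -0.41 for *Pcdhga10*, -0.85 for *Pcdhga12*, -0.99 for *Pcdhgc3*, -0.98 for *Pcdhgc4* and -0.96 for *Pcdhgc5*. The 3 C-type genes passed in every alternative. *Pcdhga2* lost the call in 6 of 17 alternatives and *Pcdhgb2* in 7, with the highest adjusted p at 0.0807 and 0.0958, both without undifferentiated KO replicate 1. *Pcdhga10* lost it in 11 and *Pcdhga12* in 12 of 17, with the highest adjusted p at 0.135 without undifferentiated KO replicate 2 and 0.134 without undifferentiated WT replicate 2. *Pcdhgc3* and *Pcdhgc5* were higher in KO before induction and lower after it, and passed in both states.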

How the results depend on the processing

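The counts of members that passed were 17 and 11 for KO against WT before and after induction, 25 and 17 for induction in WT and KO MSCs, and 22 for the interaction. With the DEG limits they were 0, 0, 2, 1 and 1. With a replicate block they were 12, 7, 19, 17 and 15. Deviations of same-numbered libraries from their group means had correlations between -0.0924 and 0.0304, so no shared deviation was seen. That does not settle whether same-numbered libraries came from the same pool. With only the libraries compared the count after induction was 6, and with a minimum of 0.5 RPKM the count for induction in WT MSCs was 14, of 31 members then tested. Leaving out 1 library gave 7 to 25, 5 to 12, 16 to 27, 12 to 19 and 12 to 21. The first count was 10 without undifferentiated WT replicate 1, 7 without replicate 2, and 7 and 9 without undifferentiated KO replicates 1 and 2. The second was 6 and 5 without differentiating WT replicates 1 and 2, the third 16 without replicate 2 of that group, and the interaction 12 without it and 14 and 13 without undifferentiated KO replicates 1 and 2. A group left with 1 library was assumed to vary like the others.

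For the 54 named results, all of which had passed in the main fit, 944 alternative values were computed. Of these, 789 stayed on the same side of the threshold, 155 no longer passed and 0 turned direction. In all alternatives 30 results passed. Several alternatives leave the log2 fold change as it was, so the count of 0 is no test of direction in them. For *Pcdhga12* before induction the value was 0.628 in the main fit, with either other minimum level and with a replicate block. It was also 0.628 without either differentiating WT library. It was 0.583 with quantile normalization and 0.459 without undifferentiated WT replicate 2. The cause of the 155 lost calls was not tested, beyond the smaller number of libraries or genes in a fit. With 2 libraries a group and 48.0 to 67.1 M scaled reads, members under 0.1 RPKM rest on a few reads each and were left without a test.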
